A study of Mus musculus with 6 samples.

Results

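This section describes the transporter genes of the solute carrier families Slc1, Slc2, Slc3, Slc6, Slc7, Slc16, Slc36, Slc38 and Slc43, which carry amino acids, glucose and monocarboxylates such as lactate across cell membranes. Members were all probe sets whose single gene symbol in the platform annotation has one of these family names followed by a member number, which gave 161 of 45101 probe sets and 82 of 18193 genes. The rule uses names and no measured value, although the families were picked with earlier results of these data known. The source was ICR mouse embryos of 8.5 days post coitum with 3 to 4 somites, in which blood does not yet circulate, and RNA was read on Affymetrix arrays. The 6 arrays form 3 groups of 2: Flk1-positive cells (Flk1 is a VEGF receptor, the product of Kdr, and marks endothelium and its precursors), embryos lacking Flk1 through a knockout (Flk1 KO) and wild-type (WT) embryos. The embryo groups are the embryo proper. The design text also names Flk1+/GFP embryos, while the label of the cells gives no GFP allele, so a difference in genotype between the cells and WT embryos cannot be told apart from the group. The sources used here do not say how the cells were selected, nor whether the arrays of 1 group stem from different embryos or pools. P-values thus cover only the spread between these samples, and that spread may be technical.

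A cell takes up glucose by facilitated diffusion through the Slc2 family. Lactate, pyruvate and ketone bodies cross the membrane together with protons through some members of the Slc16 family. Amino acids enter through sodium-coupled carriers (Slc1, Slc6, Slc38), proton-coupled carriers (Slc36) and exchangers or uniporters (Slc7, Slc43), and several Slc7 light chains need an Slc3 heavy chain to reach the membrane. In mature brain vessels, endothelial cells are known for dense glucose and amino acid carriers that supply the tissue, while early embryonic cells rely on glycolysis and import of essential amino acids.

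Values are the deposited linear probe-set signals, and differences are log2 differences ± SE from limma on log2(signal + 21.61), with 2 arrays per group, a scale that understates the change of dim genes. Each gene is shown by its brightest probe set, judged by the mean over the 6 arrays. The background level was a signal of 57.4, and a gene whose dimmer group averaged under it has its fold stated as "at least", from the brighter mean down to that level. A gene rose or fell only where its limma adjusted p, taken over all 34621 probe sets tested, was under 0.05. Of the 82 members, 69 had a mean signal of at least 21.6 and were tested. The other 13 (Slc1a6, Slc2a9, Slc6a11, Slc6a12, Slc6a13, Slc6a14, Slc6a16, Slc7a12, Slc7a13, Slc7a14, Slc7a15, Slc16a5 and Slc16a7) reached at most 45.7 on any array. Of the 69, 10 lay below the background level in every group. Signals of different probe sets are not comparable with each other, so levels of different genes are not compared, and the brightest member of a family was used only to choose which genes are described.

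Kdr itself read 3309 and 3328 on Flk1-positive arrays, 543.9 and 545.5 on WT arrays and 29.5 and 63.8 on Flk1 KO arrays, the order that the labels give. Its Flk1 KO mean lay below background, at least 7.17-fold under WT (limma adjusted p = 0.0516, so not called, with adjusted p from 6.69e-05 to 0.416 over the alternatives). Against WT, the Flk1-positive arrays had higher values for all 7 endothelial markers tested (summed signal 32844 to 32932 against 2370.3 to 2446, and 840.4 to 852.7 in Flk1 KO). Primitive erythroid markers were higher too, 5 of 5 tested (42788 to 44518 against 479 to 985), as were 2 of 5 macrophage markers (866 to 921 against 290.0 to 323). Lower were 5 of 5 neuroectoderm markers (235 to 332 against 9536 to 9723), 5 of 5 cardiomyocyte markers (692 to 769.7 against 9187 to 9615), 4 of 5 somite markers (345 to 358 against 3278.5 to 3303), 6 of 6 yolk sac endoderm markers (6369 to 6407 against 15657 to 18057) and 4 of 5 gut endoderm markers (4972 to 5337 against 7399.8 to 7847), where Sox17, also used by endothelium, rose. No marker was at 0, the floor of the values being 1. For the transferrin receptor RNA control, the 3' probe set exceeded the 5' one by 1.26 and 1.35 (log2) on the Flk1-positive arrays and by 0.94 to 1.05 elsewhere. The Actb control went the other way (0.26 and 0.29 against 0.47 to 0.58), and the Gapdh control lay between -0.37 and -0.32 on all 6 arrays. The part of these cell types and of these controls in the transporter differences was not tested, and in such bulk samples fewer cells of a type and less RNA per cell cannot be told apart.

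The comparison of Flk1-positive cells with WT embryos asks which transcripts are enriched in these cells. Of the 69 transporters tested, 14 rose, 12 fell and 43 did not pass the test. The 14 that rose are 20.3% of those tested, beside 12.2% of 15205 genes over the whole array, and the 12 that fell are 17.4%, beside 17.5%. The median difference was -0.05 for the transporters and -0.08 for all genes tested. All 3 Slc43 genes rose (2 facilitative amino acid carriers and the nucleobase transporter Slc43a3), as did 3 of 9 Slc38, 2 of 6 Slc1, 2 of 11 Slc7, 2 of 11 Slc16, 1 of 4 Slc36 and 1 of 13 Slc6 genes. No Slc2 gene rose and 3 of 10 fell, along with 3 of 11 Slc7, 3 of 13 Slc6, 2 of 11 Slc16 and 1 of 9 Slc38 genes. Leaving out single arrays, 9 of the 14 rises held in all 6 cases and 3 of the 12 falls did (Slc2a3, Slc6a15 and Slc7a3). Without WT replicate 2, 9 transporters rose and 4 fell. Falls numbered 6 without Flk1-positive replicate 2 and 4 without WT replicate 1. Leaving out an array lowers the degrees of freedom for every probe set on the array. Counts over all genes were not set beside these, so the losses are not read as a trait of transporters. The plot of differences for all 69 genes shows the Slc43 genes on the right and the called Slc2 genes on the left.

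**Figure D1:**
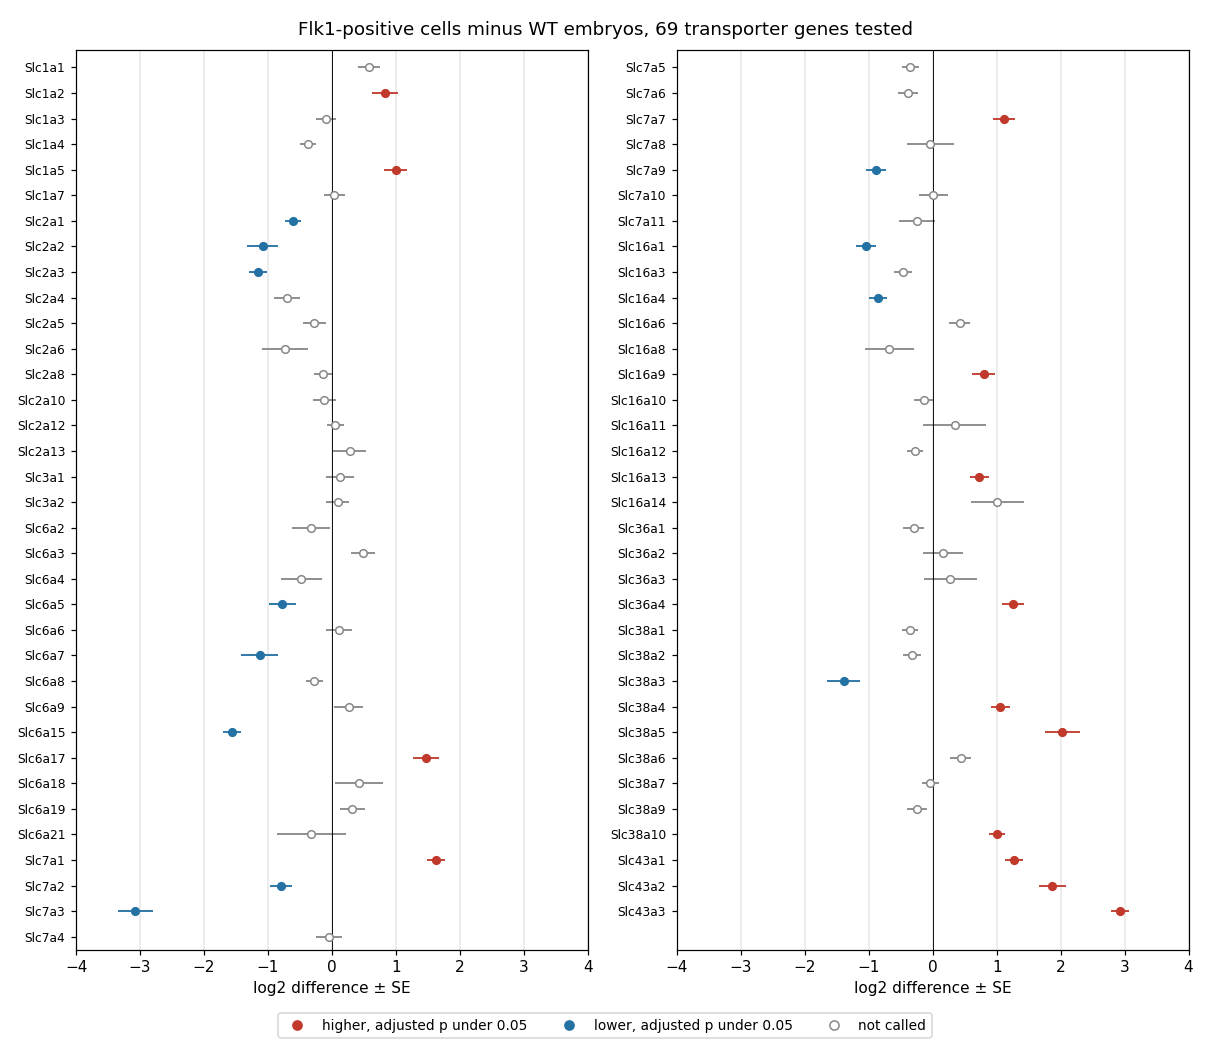
Log2 difference between Flk1-positive cells and WT embryos (x axis, ± SE, 2 arrays per group) for the 69 transporter genes tested, in family order, with 1 point per gene. Filled red points rose (14), filled blue points fell (12) and open points were not called (43), and values ran from -3.07 (Slc7a3) to 2.93 (Slc43a3).

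The Slc43 family was higher throughout in Flk1-positive cells. Slc43a3, a purine nucleobase transporter, had signals of 2218 and 2385 on Flk1-positive arrays, 304 and 262 on WT arrays and 232 and 219 on Flk1 KO arrays. Both Flk1-positive arrays were far above the other 4, and the rise over WT was 2.93 ± 0.14, or 7.64-fold (limma adjusted p = 0.000475). Slc43a2 (LAT4), a uniporter for leucine, phenylalanine and methionine, had 427 and 474 on Flk1-positive arrays, 108 and 107 on WT arrays and 41.5 and 70.7 on Flk1 KO arrays. Its groups were fully separated, in the order Flk1-positive, WT, Flk1 KO, and it rose by 1.87 ± 0.21 over WT (limma adjusted p = 0.00315). Slc43a1 (LAT3), a carrier of the same large neutral amino acids, had 860.4 and 918 against 382 and 330.3 in WT and 372 and 418 in Flk1 KO embryos. It rose by 1.27 ± 0.14 over WT (limma adjusted p = 0.0033), while WT and Flk1 KO arrays overlapped. All 3 calls held on leaving out any array.

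Slc43a1 and Slc43a3 lie near each other on chromosome 2 with 1 protein-coding gene between them in the RefSeq order, and Slc43a2 is on chromosome 11. Among other members with no coding gene between them, Slc38a4 rose while its neighbour Slc38a2 was not called (-0.33 ± 0.14), and Slc16a13 rose beside Slc16a11, which was not called (0.34 ± 0.49). Upstream windows are printed for the Slc43 genes with a listed promoter, which rose together, and for the glucose transporter Slc2a1 and the lactate transporter Slc16a1, which fell. They are the 250 bases before the gene start from RefSeq (build GRCm38.p6), 5' to 3' on the gene's strand, and capitals mark the GC box GGGCGG on either strand (CCGCCC where it lies on the other), a motif of SP and KLF factors. Slc43a1 (chr2:84840073-84840322, + strand) has 2 such boxes, Slc43a2 (chr11:75531444-75531693, + strand) 3 in the printed window and 1 in its other listed window, Slc2a1 (chr4:119108495-119108744, + strand) 2 and Slc16a1 (chr3:104638414-104638663, + strand) 1.
Slc43a1: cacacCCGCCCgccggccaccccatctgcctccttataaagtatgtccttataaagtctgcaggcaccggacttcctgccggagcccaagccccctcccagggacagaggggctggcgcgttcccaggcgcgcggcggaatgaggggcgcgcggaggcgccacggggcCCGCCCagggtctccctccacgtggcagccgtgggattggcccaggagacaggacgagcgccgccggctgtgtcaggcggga
Slc43a2: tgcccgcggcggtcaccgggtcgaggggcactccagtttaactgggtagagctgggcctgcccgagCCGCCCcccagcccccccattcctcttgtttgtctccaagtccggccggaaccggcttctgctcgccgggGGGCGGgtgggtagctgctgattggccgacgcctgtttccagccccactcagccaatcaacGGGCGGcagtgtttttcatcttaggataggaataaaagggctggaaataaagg
Slc2a1: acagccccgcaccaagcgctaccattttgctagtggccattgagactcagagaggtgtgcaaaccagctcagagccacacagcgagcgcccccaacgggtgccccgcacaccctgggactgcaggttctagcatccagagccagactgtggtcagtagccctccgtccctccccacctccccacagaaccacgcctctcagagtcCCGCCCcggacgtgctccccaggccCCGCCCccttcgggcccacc
Slc16a1: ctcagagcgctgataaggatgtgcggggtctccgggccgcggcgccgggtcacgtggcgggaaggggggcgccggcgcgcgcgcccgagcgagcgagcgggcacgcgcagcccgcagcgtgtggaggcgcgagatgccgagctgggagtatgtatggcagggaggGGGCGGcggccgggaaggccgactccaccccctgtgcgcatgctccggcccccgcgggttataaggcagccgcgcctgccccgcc
Slc2a1 and Slc16a1 were the only 2 genes with the box among the 6 that fell and had a listed promoter. The windows of Slc2a2, Slc6a5, Slc7a9 and Slc16a4 held none, so the printed windows do not stand for the genes that fell. Promoters were listed for 59 of the 82 members, 80 windows in all, and a gene was counted when any of its windows held the motif. GGGCGG was in 9 of 11 genes that rose, 2 of 6 that fell and 19 of 33 not called, beside 32.7% of all 32851 listed windows. The ETS core CCGGAA was in 2 of 11, 0 of 6 and 6 of 33, beside 12.03% of windows, and the C/EBP-ATF response element TGATGNAAN in 1 of 11, 0 of 6 and 2 of 33, beside 3.44%. Both strands were searched for each, matches are a description only, and genes with several windows have more chances of a match.

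The cationic amino acid carriers, which import arginine and lysine, differed in opposite directions. Slc7a1 (CAT1), the widely used member, had signals of 1246 and 1308 on Flk1-positive arrays, 379 and 418 on WT arrays and 521 and 453 on Flk1 KO arrays. The Flk1-positive arrays stood above all others, a rise of 1.63 ± 0.14 or 3.09-fold over WT (limma adjusted p = 0.00143). Slc7a3 (CAT3), known from embryo and brain, had 64.0 and 46.4 on Flk1-positive arrays, 599 and 644 on WT arrays and 343 and 578 on Flk1 KO arrays. Its Flk1-positive mean lay below background while the 4 embryo arrays were bright, so it was at least 8.14-fold lower than in WT (limma adjusted p = 0.00148). Slc7a2 (CAT2) had 54.0 and 36.2 on Flk1-positive arrays, 96.0 and 89.7 on WT arrays and 108 and 101 on Flk1 KO arrays, at least 1.45-fold lower than in WT (limma adjusted p = 0.025). The Slc7a2 call was lost without Flk1-positive replicate 2 and without WT replicate 1 or 2 (limma adjusted p = 0.1, 0.12 and 0.098). Slc7a4, named for this subfamily, was not called (-0.05 ± 0.20). The calls of Slc7a1 and Slc7a3 held on leaving out any array.

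Among the Slc7 light chains that pair with a heavy chain, Slc7a7 rose. Slc7a7 (y+LAT1), which exports cationic in exchange for neutral amino acids, had 630.1 and 572 on Flk1-positive arrays, 290.0 and 240.4 on WT arrays and 179 and 224 on Flk1 KO arrays. It rose by 1.12 ± 0.17 over WT (limma adjusted p = 0.00855), a call lost without WT replicate 2 (limma adjusted p = 0.0556). Its relative Slc7a6 (y+LAT2) had 1569 and 1507 on Flk1-positive arrays, 1976 and 2073 on WT arrays and 1967 and 2482 on Flk1 KO arrays and was not called (-0.39 ± 0.16), although both Flk1-positive arrays were lowest. Slc7a5 (LAT1), the leucine exchanger that supplies mTORC1 signalling, was not called either (-0.35 ± 0.13). Their shared heavy chain Slc3a2 (4F2hc, CD98) had 2333 and 2332 on Flk1-positive arrays, 2173 and 2219 on WT arrays and 2747 and 2028 on Flk1 KO arrays. The 3 groups of Slc3a2 lay within 0.10 of each other on the log2 scale, with no call (0.09 ± 0.18 for Flk1-positive cells over WT). Slc7a9, the light chain of the cystine carrier of kidney and gut, had 93.9 and 72.7 on Flk1-positive arrays, 160.1 and 183 on WT arrays and 239 and 241 on Flk1 KO arrays. It fell by 0.89 ± 0.16 (limma adjusted p = 0.0137), a call lost without Flk1-positive replicate 2 and without WT replicate 1 or 2 (limma adjusted p = 0.0686, 0.0557 and 0.0833). Its heavy chain Slc3a1 was below background in every group, as were Slc7a10 and the cystine-glutamate exchanger Slc7a11, and Slc7a8 (LAT2) was not called (-0.04 ± 0.37).

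The Slc38 and Slc36 families, sodium-coupled and proton-coupled carriers of small neutral amino acids, held several genes that rose. Slc38a5 (SNAT5), a glutamine and glycine carrier, had signals of 461 and 304 on Flk1-positive arrays, 89.0 and 64.1 on WT arrays and 120.2 and 80.9 on Flk1 KO arrays. The groups did not overlap between Flk1-positive cells and embryos, and the rise over WT was 2.03 ± 0.28 or 4.07-fold (limma adjusted p = 0.00589). Slc38a4 (SNAT4), an imprinted gene, had 4864 and 4914 against 2336 and 2335 in WT and 1957 and 2389 in Flk1 KO embryos, a rise of 1.06 ± 0.15 (limma adjusted p = 0.00625). Slc38a10 had 3877 and 3558 against 1869 and 1812 in WT and 1665 and 1743 in Flk1 KO embryos, a 2.01-fold rise over WT (limma adjusted p = 0.00465). For both genes the Flk1-positive arrays were about level with each other and above all embryo arrays. Slc36a4 (PAT4), a high-affinity proline and tryptophan carrier, had 405 and 397 on Flk1-positive arrays, 161 and 152 on WT arrays and 179 and 130.3 on Flk1 KO arrays. It rose by 1.25 ± 0.17 over WT (limma adjusted p = 0.00604), and these 4 rises held on leaving out any array. Slc38a3 (SNAT3), a glutamine carrier of liver, kidney and glia, went the other way, with 16.8 and 10.6 against 74.9 and 66.6 in WT and 113 and 60.8 in Flk1 KO embryos. It was at least 1.17-fold lower than in WT (limma adjusted p = 0.016), a call lost without Flk1-positive replicate 2 and without WT replicate 1 or 2 (limma adjusted p = 0.074, 0.0866 and 0.0708).

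The glutamine carrier Slc38a2 (SNAT2), induced by amino acid shortage, had 5873 and 6196 on Flk1-positive arrays, 7173 and 8019.8 on WT arrays and 7339 and 8266 on Flk1 KO arrays, and was not called (-0.33 ± 0.14). The other Slc38 genes not called were Slc38a1 (-0.36 ± 0.13), Slc38a6 (0.44 ± 0.17), Slc38a7 (-0.04 ± 0.13) and the lysosomal arginine sensor Slc38a9 (-0.25 ± 0.15). Slc36a1, Slc36a2 and Slc36a3, which neighbour each other on chromosome 11, were not called, with differences of -0.30 to 0.27.

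In the Slc1 family the neutral amino acid exchanger Slc1a5 (ASCT2), a main route for glutamine, rose. Its signals were 1198 and 949.6 on Flk1-positive arrays, 575 and 480.3 on WT arrays and 602 and 611 on Flk1 KO arrays. The rise over WT was 0.99 ± 0.17 (limma adjusted p = 0.0129), lost without Flk1-positive replicate 1 (limma adjusted p = 0.0615) and without WT replicate 2 (limma adjusted p = 0.0768). The glutamate transporter Slc1a2 (EAAT2) had 175 and 161 against 107 and 67.4 in WT and 73.4 and 66.1 in Flk1 KO embryos, a rise of 0.83 ± 0.21 (limma adjusted p = 0.0381). The Slc1a2 call ended on leaving out any array other than WT replicate 1 (limma adjusted p = 0.0666 to 0.141), with the smaller pseudocount, without the filter on low values and with only both groups compared in the fit. It also ended with the median over the gene's probe sets (0.36, limma adjusted p = 0.404). The exchanger Slc1a4 (ASCT1) was not called (-0.38 ± 0.13), nor were the glutamate transporters Slc1a1 (0.58 ± 0.17), Slc1a3 (-0.10 ± 0.15) and Slc1a7 (0.04 ± 0.17).

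The Slc6 family, which holds neurotransmitter and amino acid carriers coupled to sodium and chloride, gave 1 rise and 3 falls. Slc6a17 (NTT4), a vesicular neutral amino acid carrier of neurons, had signals of 355 and 257 on Flk1-positive arrays, 97.6 and 94.2 on WT arrays and 118 and 89.7 on Flk1 KO arrays. Flk1-positive arrays lay well above the embryos although they differed among themselves, and the rise was 1.46 ± 0.20 or 2.76-fold (limma adjusted p = 0.00625). Its relative Slc6a15 (B0AT2), a branched-chain amino acid and proline carrier, had 45.3 and 48.2 against 184 and 177 in WT and 179.8 and 213 in Flk1 KO embryos. With a Flk1-positive mean below background it was at least 2.56-fold lower than in WT (limma adjusted p = 0.00152), and both calls held on leaving out any array. The proline carrier Slc6a7 had 8.32 and 31.8 on Flk1-positive arrays, 73.0 and 59.5 on WT arrays and 34.7 and 32.1 on Flk1 KO arrays, at least 1.11-fold lower than in WT (limma adjusted p = 0.0413). The glycine carrier Slc6a5 also passed the test (limma adjusted p = 0.0455), but with every group below background no fold is given. Calls of both genes were lost on leaving out any array other than Flk1-positive replicate 2 (limma adjusted p = 0.0798 to 0.169 for Slc6a7 and 0.0725 to 0.183 for Slc6a5), and with the replicate block (limma adjusted p = 0.0632 for Slc6a7 and 0.0761 for Slc6a5), quantile normalization, median centring, the smaller pseudocount, no filter and only both groups compared in the fit. The Slc6a5 call was also lost with the larger pseudocount and with an intensity trend and robust prior (limma adjusted p = 0.0756 and 0.13). The taurine carrier Slc6a6 had 1561 and 1619 on Flk1-positive arrays, 1381 and 1576 on WT arrays and 1203 and 1705 on Flk1 KO arrays, and the groups overlapped (0.11 ± 0.20). The creatine carrier Slc6a8 (-0.28 ± 0.14) and the glycine carrier Slc6a9 (0.26 ± 0.23) were not called, and neither were Slc6a2 and Slc6a19 or the remaining 4 tested genes, Slc6a3, Slc6a4, Slc6a18 and Slc6a21, which lay below background in every group.

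**Figure D2:**
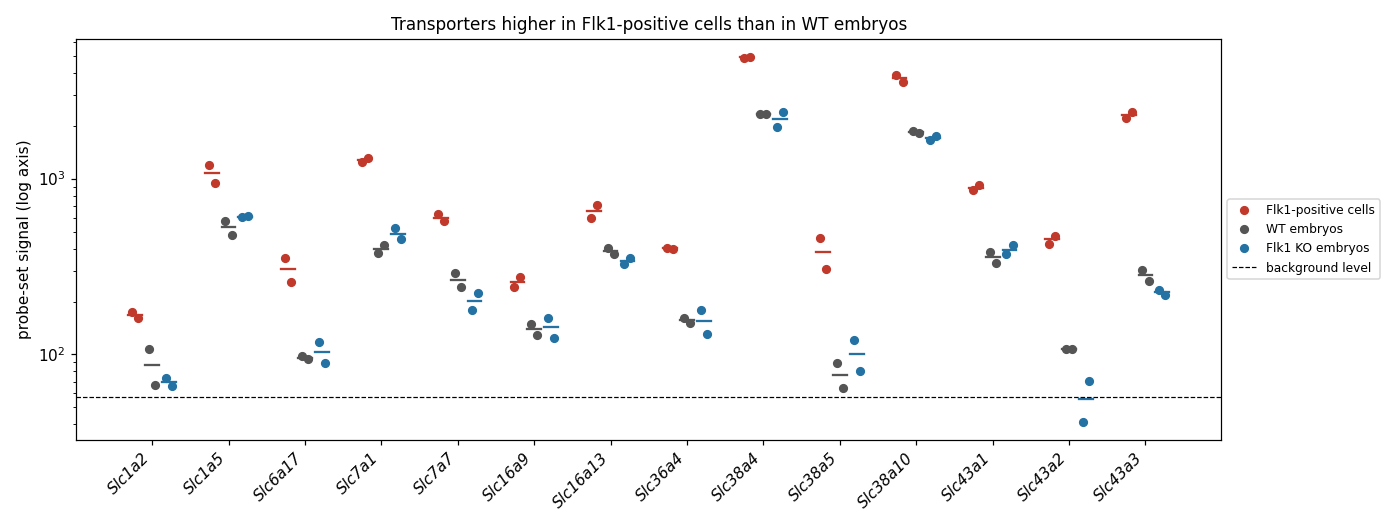
Signal of the brightest probe set on each of the 6 arrays (y axis, log scale, arbitrary signal units) for the 14 transporters that rose in Flk1-positive cells over WT embryos, with bars for group means of 2 arrays and a dashed line at the background level of 57.4. Every Flk1-positive array lies above every WT array of the same gene, with the widest gap for Slc43a3 (2218 and 2385 against 304 and 262).

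Of 10 Slc2 genes tested, which are not all glucose carriers, 3 fell in Flk1-positive cells and 7 were not called. Slc2a3 (GLUT3), the high-affinity form of neurons and early embryos, had signals of 10035 and 10671 on Flk1-positive arrays, 23422 and 22738 on WT arrays and 24238 and 21278 on Flk1 KO arrays. Both Flk1-positive arrays were lowest, and the fall from WT was 2.23-fold (log2 difference -1.16 ± 0.14, limma adjusted p = 0.00365). The other 3 probe sets of Slc2a3 gave larger falls, of -2.01 ± 0.12, -2.61 ± 0.17 and -2.77 ± 0.19, and all 4 were called. Slc2a1 (GLUT1), the glucose transporter of most embryonic cells and of blood-brain barrier endothelium, had 14602 and 15048 against 22262 and 23111 in WT and 20713 and 21678 in Flk1 KO embryos. It fell 1.53-fold from WT (-0.61 ± 0.12, limma adjusted p = 0.02), its 2 other probe sets were called lower too, and the call was lost without Flk1-positive replicate 1 or 2 and without WT replicate 1 or 2 (limma adjusted p = 0.1, 0.0857, 0.091 and 0.108). Slc2a2 (GLUT2), known from liver, pancreas and yolk sac endoderm, had 255 and 215 on Flk1-positive arrays, 414 and 653 on WT arrays and 583 and 643 on Flk1 KO arrays. It fell by 1.08 ± 0.24 (limma adjusted p = 0.027), a call lost without any array other than WT replicate 1 (limma adjusted p = 0.0546 to 0.112). The insulin-responsive Slc2a4 (GLUT4) was also lower in value without a call (-0.70 ± 0.20, limma adjusted p = 0.0561), though its other tested probe set was called, with 4.17 and 3.69 on Flk1-positive arrays against 126 and 98.2 in WT (-2.38 ± 0.16). The other tested members differed by -0.73 ± 0.36 (Slc2a6, below background) to 0.28 ± 0.26 (Slc2a13), with no call for the fructose carrier Slc2a5, Slc2a8, Slc2a10 and Slc2a12.

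Monocarboxylate transporters went both ways. Slc16a1 (MCT1), which moves lactate and pyruvate, had signals of 7064 and 6456 on Flk1-positive arrays, 14479 and 13462 on WT arrays and 12199 and 15086 on Flk1 KO arrays. Flk1-positive arrays lay below all 4 embryo arrays, a 2.06-fold fall from WT (-1.05 ± 0.16, limma adjusted p = 0.00845), lost without WT replicate 1 (limma adjusted p = 0.0583). Slc16a3 (MCT4), the lactate exporter of glycolytic cells, was not called (-0.46 ± 0.14, limma adjusted p = 0.0687). The orphan carrier Slc16a13 had 598 and 713 on Flk1-positive arrays, 402 and 371 on WT arrays and 325 and 355 on Flk1 KO arrays and rose by 0.73 ± 0.15 (limma adjusted p = 0.0214), a call lost without Flk1-positive replicate 2 and without WT replicate 1 or 2 (limma adjusted p = 0.105, 0.0837 and 0.114). Slc16a9 (MCT9), a carnitine carrier, had 240.4 and 275 against 149.95 and 129 in WT and 161 and 125 in Flk1 KO embryos and rose by 0.79 ± 0.17 (limma adjusted p = 0.0259). The Slc16a9 call was lost without Flk1-positive replicate 1 or 2, without WT replicate 1 or 2 (limma adjusted p = 0.0714 to 0.13) and with the median over its probe sets (0.47, limma adjusted p = 0.124). Slc16a4 had 131 and 139 on Flk1-positive arrays, 265 and 257 on WT arrays and 232 and 277 on Flk1 KO arrays, a fall of 0.85 ± 0.14 (limma adjusted p = 0.0113). Its other probe set was called in the opposite direction (0.93 ± 0.18), and the median of both gave 0.041 with no call. The fall was also lost without Flk1-positive replicate 1 or 2 and without WT replicate 1 or 2. Slc16a4 stays among the 12 counted falls because the counts use the brightest probe set, but its direction is not settled. Of the other Slc16 genes tested, the thyroid hormone and aromatic amino acid carrier Slc16a10 (-0.14 ± 0.14), Slc16a6 (0.42 ± 0.17), Slc16a8 (-0.68 ± 0.38), Slc16a11, Slc16a12 (-0.28 ± 0.13) and Slc16a14 (1.01 ± 0.41, below background) were not called.

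**Figure D3:**
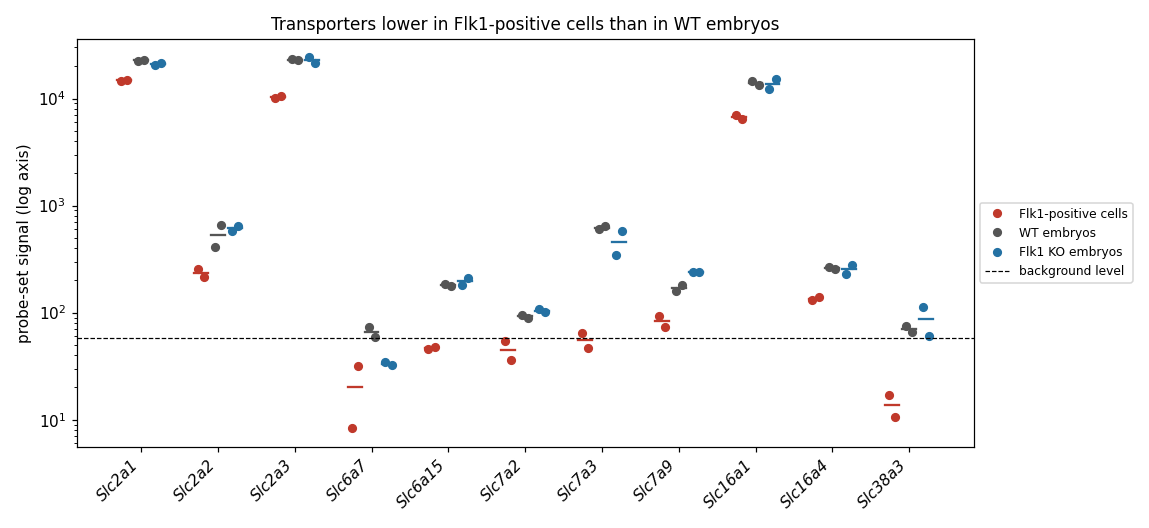
Signal of the brightest probe set on each of the 6 arrays (y axis, log scale, arbitrary signal units) for 11 of the 12 transporters that passed the test downward in Flk1-positive cells against WT embryos, with bars for group means of 2 arrays and a dashed line at the background level of 57.4. Slc6a5, below background in every group, is left out, and Flk1-positive arrays of Slc7a3 (64.0 and 46.4) sit near the dashed line while WT arrays reach 599 and 644.

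Genes that work with these carriers were described from lists, and each count of calls is read beside the 12.2% higher and 17.5% lower of all genes tested. In the partner list 1 gene was higher and 3 lower of 6 tested, with a median of -0.55. Embigin (Emb), a membrane chaperone of monocarboxylate transporters, fell by 1.92 ± 0.13 (limma adjusted p = 0.000682). Basigin (Bsg), the chaperone of Slc16a1 and Slc16a3, was not called (-0.21 ± 0.12). Txnip, an arrestin that drives glucose transporters off the surface, rose by 1.89 ± 0.16 (limma adjusted p = 0.00127), and Cltrn, a chaperone of renal amino acid carriers, was at least 1.75-fold lower (limma adjusted p = 0.0015). These 3 calls held on leaving out any array, and Slc7a9 is the other gene counted as lower. Of 13 lactate and glycolysis enzymes tested, 2 were higher and 3 lower, with a median of -0.17. Ldhb, the lactate dehydrogenase subunit of oxidative tissue, fell by 2.07 ± 0.21 (limma adjusted p = 0.00229, held on leaving out any array), while Ldha was not called (-0.04 ± 0.15). Hexokinase Hk1 rose by 1.43 ± 0.22 (limma adjusted p = 0.00843, lost without WT replicate 2 at 0.0547) and Hk2 fell by 0.90 ± 0.14 (limma adjusted p = 0.00965, lost without Flk1-positive replicate 1 and WT replicate 2 at 0.0543 to 0.0656).

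Of 8 transporters known from brain capillary endothelium, 2 were higher (Slc7a1 and Slc38a5) and 3 lower (Slc2a1, Slc16a1 and Slc38a3), with a median of -0.13. Of 10 transporters known to respond to ATF4, the transcription factor of the amino acid shortage response, 3 were higher (Slc7a1, Slc1a5 and Slc36a4) and 1 lower (Slc7a3), with a median of -0.08. Of 20 other ATF4 targets, 4 were higher and 2 lower, with a median of -0.01. The higher genes were Atf4 itself (0.58 ± 0.14), Ddit3 (1.08 ± 0.23), Chac1 (0.75 ± 0.16) and Cebpb (1.09 ± 0.20), with limma adjusted p = 0.0334, 0.0228, 0.0254 and 0.0142. The lower genes were Psph (-0.83 ± 0.12), a serine synthesis enzyme, and Cebpg (-0.57 ± 0.13), with limma adjusted p = 0.00805 and 0.0268. All 6 calls were lost on leaving out WT replicate 1 or WT replicate 2. They were also lost without Flk1-positive replicate 1 (Atf4, Ddit3, Psph and Cebpg) and without Flk1-positive replicate 2 (Atf4, Chac1, Cebpb and Cebpg), with limma adjusted p = 0.0501 to 0.139 over these losses. With each gene taken as the median of its probe sets, Ddit3 was no longer called and Cebpg changed sign. Amino acid sensing genes at the lysosome gave 2 higher and 1 lower of 16 tested, with a median of 0.02. The GTPase gene Rragd fell by 3.42 ± 0.14 and its relative Rragc rose by 0.93 ± 0.12 (limma adjusted p = 0.000456 and 0.00555), and both calls held on leaving out any array. All of these list medians are read beside -0.08 for all genes tested, and the counts beside 12.2% called higher and 17.5% called lower.

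Other probe sets of a gene were compared with its brightest. Of the 26 transporters called in Flk1-positive cells against WT, 13 had other tested probe sets, 23 in all, of which 20 had the same sign and 14 the same call. The 2 called in the opposite direction belonged to Slc16a4 and to Slc38a10, which was higher by 1.10 ± 0.14, 0.82 ± 0.14 and 0.73 ± 0.20 on 3 further probe sets and lower by 0.93 ± 0.20 on a dim one (78.3 and 68.3 against 147 and 173). Slc7a1 gave 1.64 ± 0.18 on 1 of its 2 other tested probe sets, while the remaining probe set had the same sign without a call. Slc43a2 gave 1.03 ± 0.15 on another probe set. The other probe set of Slc1a5 had the same sign without a call. The other 13 called genes rested on 1 tested probe set, among them Slc43a3, Slc43a1, Slc38a5, Slc7a3, Slc36a4 and Slc6a15. Of the 43 genes not called, 4 had another probe set that was. For Slc38a9, 1 of 6 others was called lower, and for Slc2a4 its only other one was. The other probe set of Slc1a1 was called higher (75.1 and 53.0 against 20.2 and 27.3 in WT, 0.91 ± 0.18), and that of Slc2a10 lower (18.6 and 18.8 against 64.4 and 77.5, -1.20 ± 0.14).

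**Figure D4:**
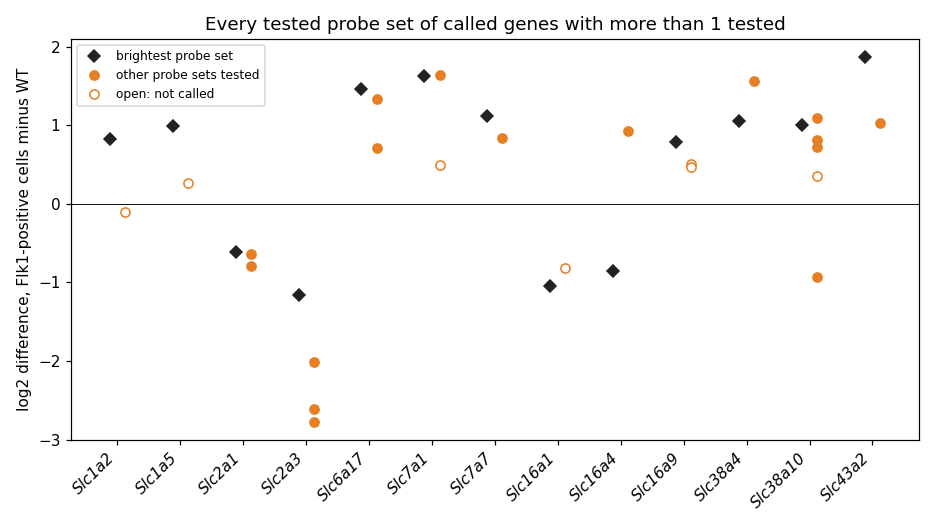
Log2 difference between Flk1-positive cells and WT embryos (y axis) for every tested probe set of the 13 called transporters with more than 1 tested, with black diamonds for the brightest probe set, orange circles for the others and open symbols where not called. Slc2a3 spreads from -1.16 to -2.77, and Slc16a4 and Slc38a10 each have a called probe set on the other side of 0.

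Flk1-positive cells were also set against Flk1 KO embryos, a comparison that shares its Flk1-positive arrays with the one against WT, so its calls add no independent support. Here 16 of 69 transporters rose (23.2%, beside 12.9% of all genes) and 16 fell (23.2%, beside 19.1%). Slc43a3 differed by 3.23 ± 0.14, Slc43a2 by at least 5.97-fold, Slc38a5 by 1.72 ± 0.28 and Slc7a1 by 1.36 ± 0.14. Slc7a3 was at least 5.92-fold lower, Slc2a3 differed by -1.13 ± 0.14 and Slc16a1 was 2.01-fold lower. Called here but not against WT were Slc1a1 and Slc6a19 (higher) and Slc1a4, Slc2a4, Slc2a8, Slc7a5, Slc16a3 and Slc16a12 (lower). Of these, only the Slc16a12 call held on leaving out any array. In the Slc2 family, 5 of 10 tested genes fell. Slc6a5 and Slc6a7 were called against WT only. Fewer rises and fewer falls were called on leaving out any array, WT arrays included, since these also enter the shared estimate of the spread. Counts over all genes were not set beside this loss.

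The comparison of Flk1 KO with WT embryos asks what changes with loss of the receptor, and it shares its WT arrays with that of Flk1-positive cells. No transporter was called in either direction by limma, beside 0% of all genes called higher and 0.132% called lower. At an unadjusted limma p under 0.05, 3 of 69 were higher and 1 lower. The share of all genes at that threshold was not counted, so this is not read as a change in transporters. An intensity trend with a robust prior also called no transporter. Differences ran from -0.93 to 0.68, with a median of -0.03 beside 0.00 for all genes tested. Of the endothelial markers, 2 of 7 (Tie1 and Esam) were called lower in Flk1 KO embryos, and the part of this in the values was not tested. In the plot of Flk1 KO against WT differences all 69 points are open. The 3 lowest values were those of Slc16a8 (-0.93 ± 0.38), Slc16a11 (-0.76 ± 0.49) and Slc43a2 (-0.76 ± 0.21, limma adjusted p = 0.435). Slc16a8, a lactate carrier of the retinal pigment epithelium, had 45.4 and 43.6 in Flk1 KO and 114 and 95.1 in WT embryos, while Slc16a11 had 28.3 and 120.3 against 103 and 141, with 1 Flk1 KO array inside the WT range and the other far below it. The 3 highest values were those of Slc16a12 (0.68 ± 0.13, limma adjusted p = 0.248), Slc7a9 (0.44 ± 0.16) and Slc6a18 (0.39 ± 0.38), the last below background in all groups. Slc16a12, a creatine carrier, had 56.9 and 61.1 in Flk1 KO against 27.6 and 29.9 in WT embryos, all near or below the background level. The 5 transporters with the largest rises in Flk1-positive cells differed in Flk1 KO embryos by -0.30 ± 0.14 (Slc43a3), 0.31 ± 0.28 (Slc38a5), -0.76 ± 0.21 (Slc43a2), 0.27 ± 0.14 (Slc7a1) and 0.08 ± 0.20 (Slc6a17), and Slc7a3, the largest fall, by -0.46 ± 0.27. What size of change this comparison could detect was not tested.

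**Figure D5:**
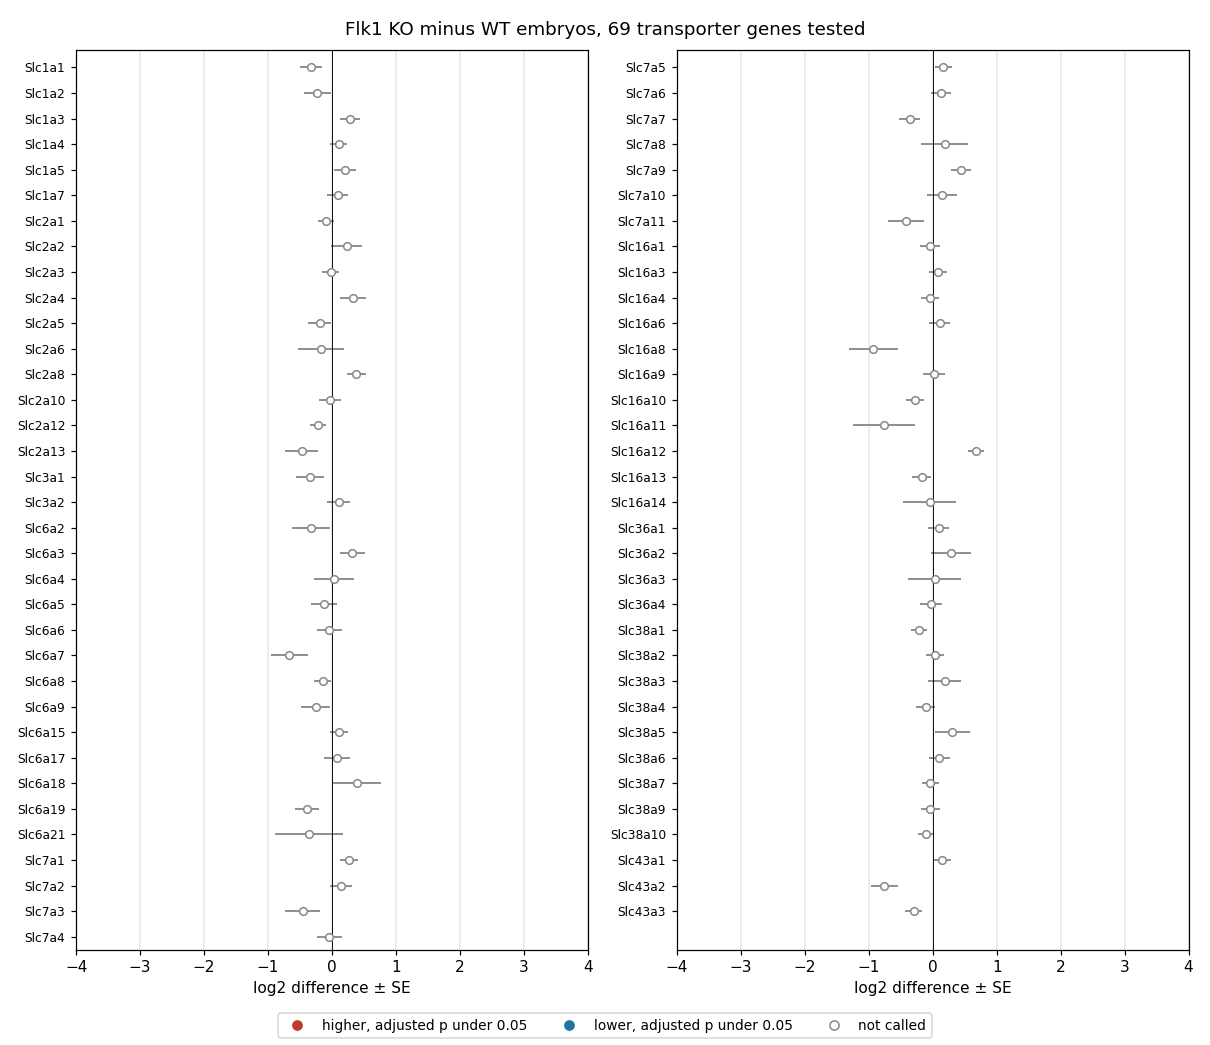
Log2 difference between Flk1 KO and WT embryos (x axis, ± SE, 2 arrays per group) for the same 69 transporter genes, in family order on the same axis range as for Flk1-positive cells. All points are open because none was called, and values ran from -0.93 (Slc16a8) to 0.68 (Slc16a12).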

How the data were processed

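Per the labels' protocols, RNA came from an RNeasy Micro preparation and carried a biotin label, and the design text names GeneSpring for the expression analysis. The authors deposited 1 linear signal per probe set and array, for 45101 probe sets. The trimmed mean (2% left out at each end) was 500.0 on every array and the lowest value 1, which is what scaling to a common level and a floor give, but no source used here names the program. Members and lists were chosen with earlier results of these data known.

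Symbols came from the platform annotation, and all 82 member genes matched the RefSeq gene table by gene ID. Signals were transformed as log2(signal + 21.61), the 25th percentile of all values. Array medians differed by at most 0.15 (log2), under the limit of 0.2, so no further scaling was applied. The 64 control probe sets and those with a mean signal under the same percentile were left out. All 6 arrays entered 1 limma 3.58.1 model with a term for group (R 4.3.3; lmFit, then eBayes; two-sided tests; 2.44 prior and 3 residual degrees of freedom), and p-values were Benjamini-Hochberg adjusted over 34621 probe sets. Background was taken from 80 probe sets of olfactory and vomeronasal receptors, as the mean over arrays of their 95th percentile. Between 54.3% and 57.9% of probe sets lay above it, and the number of arrays limits the precision.

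Values on all arrays are given for Kdr, for members past the test in Flk1 KO, for up to 14 called members in each direction with non-overlapping arrays and the brighter group above background, for the brightest member of each family, and for the 3 widest Flk1 KO values in each direction. For a check of the test, data were simulated for Flk1-positive cells against WT with 200 of 34621 probe sets changed, all well above background. The test found 95% of the 4-fold and 19% of the 2-fold changes, and 7 of its 121 calls were false. The real comparison called a far larger share of the array, which loosens the adjusted threshold. These percentages therefore do not give the detection rate of the real comparison, nor that for dim genes. Alternatives changed the pseudocount, filter, scaling, variance model, samples, block and probe set rule, or left out an array. Python 3.11.15 and matplotlib 3.10.9 drew the figures.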

Additional observations from a re-analysis of the deposited data

How the results depend on the processing

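Counts of transporters called stayed within 1.5 times under every scaling, pseudocount, filter, variance and probe set alternative run. With a 2-fold limit, 7 fell in Flk1-positive cells against WT and 8 against Flk1 KO, by construction since small differences are left out. With single arrays left out, rises against WT numbered 9 to 13, falls 4 to 9, and against Flk1 KO rises 11 to 14 and falls 9 to 11; no transporter was called in Flk1 KO against WT in any of these. With the replicate block, 14 rose and 10 fell against WT, and 16 and 11 against Flk1 KO. Deviations of same-numbered arrays correlated by only 0.0049 to 0.027, so no large shared shift was seen. The labels do not say whether same-numbered arrays were handled together, and these correlations cannot decide it. The median over probe sets reversed Slc16a4 (0.041) and, against WT and Flk1 KO, Cebpg (0.27 and 0.22); the cause was not tested. Over all probe sets, 23 were called lower and 0 higher in Flk1 KO against WT, and the alternatives gave 0 to 121 and 0 to 13, with the most under the intensity trend and robust prior and none on leaving out any array. A filter on mean log2 values, chosen after seeing the data, left all these counts as they were. Median centring moved all differences of Flk1 KO against WT by 0.10. The 2 arrays per group and signals near background limit the dim genes.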
